A study of Mus musculus with 109 samples.

Results

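Microglia of untreated mice whose floxed Il10ra gene was recombined by the Cx3cr1-CreER allele were compared with microglia of untreated mice that carried the floxed gene alone. The comparison used the 15 libraries whose titles name those genotypes without treatment, 9 mutant and 6 control, and the series holds 94 other samples. Control mice were IL10Rafl/fl, and mutant mice were CX3CR1-CreER:IL10Rafl/fl, so every library came from a mouse with floxed Il10ra and only the mutants carried the Cre allele. No control in this set carried CreER with an intact Il10ra, so the deletion and the CreER allele cannot be told apart as sources of a difference. CreER is a recombinase driven from the Cx3cr1 promoter and switched on by tamoxifen. The labels give neither a tamoxifen schedule nor an age, and they do not say that each library came from 1 mouse, so p-values measure the spread between these libraries. All 15 libraries are labelled steady state, although the treatment protocol repeated for every sample names the 2.5 mg/kg lipopolysaccharide (LPS) injection given to the treated groups. RNA was measured by MARS-seq, which counts tags near the 3′ end of transcripts, in microglia enriched from brain.

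IL-10 is an anti-inflammatory cytokine. It binds a receptor of a ligand-specific chain, encoded by Il10ra, and a chain shared with other cytokines, encoded by Il10rb. The kinases JAK1 and TYK2 then phosphorylate STAT3, which induces Socs3 and other repressors of inflammatory genes. In macrophages and microglia this pathway is known for ending the response to bacterial products.

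The libraries came from 3 experiments named in the column labels. AS_2nd_exp and AS_3rd_LPS each held 3 controls and 3 mutants. Anat_LPSchallenged held 3 untreated mutants (mutants 7 to 9) and no untreated control. Depth ran from 956688 to 1497720 recovered reads in controls and from 558878 to 1395977 in mutants. Control 1 stood apart with 0.195% of its normalised reads in mitochondrial transcripts, against 0.631% to 1.10% in the other 14 libraries, and it held 145.5 normalised reads of the haemoglobin gene Hbb-bs. Mutants 7 to 9 stood apart in immediate early genes, given below. Microglial markers were abundant: the 24 homeostatic microglia genes made up 10.4% to 12.8% of the reads of controls and 10.6% to 11.9% of those of mutants. Of the lists for 10 other cell types, some members were detected: the neutrophil gene Csf3r at 292 to 578 normalised reads, the border macrophage gene Stab1 at 731 to 997, the astrocyte gene Slc1a3 at 225 to 380, the dendritic cell gene Batf3 at 100.3 to 166 and the lymphocyte gene Cd79b at 38.8 to 56.95. The lymphocyte genes Cd3d, Cd3g, Cd79a and Ms4a1, the astrocyte genes Gfap and Aqp4 and the neutrophil gene Ly6g had no row in the table. Nor did the border macrophage genes Lyve1, Clec10a and Cd209f. No gene of the 10 lists reached p under 0.05 between genotypes.

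Il10ra fell in the mutants. The 6 controls held 745, 541, 496, 457, 496 and 515 normalised reads of Il10ra, and the 9 mutants held a lowest value of 19.0, a median of 50.9 and a highest value of 123.6. The groups were far apart, since the highest mutant stood well below the lowest control. The means were 541 ± 103 (SD, n = 6) and 63.1 ± 33.2 (SD, n = 9), so mutants kept 11.7% of the control level. On the scale of log2(normalised reads + 1), used for all differences here, limma gave -3.25 ± 0.25 (SE) with a 95% interval from -3.75 to -2.75 (adjusted p = 3.69e-13). With genotype labels exchanged only within AS_2nd_exp and AS_3rd_LPS, an exact two-sided permutation test of Il10ra over the 400 assignments gave p = 0.005, the smallest it can give. Il10ra lies on chromosome 9 (chr9:45253837-45269149, GRCm38). Because the tags come from the 3′ end and the deleted part of the gene is not stated in the labels, these values show the transcript and not the recombined allele.

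The Il10ra transcript that was left differed in size between the experiments. Within AS_2nd_exp the mutants held 19.0, 36.5 and 44.5 normalised reads of Il10ra, or 5.61% of the mean of that experiment's controls, and the log2 difference was -4.17 (limma, 95% interval -4.93 to -3.42). Within AS_3rd_LPS they held 92.8, 50.9 and 71.8, or 14.7%, and the log2 difference was -2.79 (95% interval -3.24 to -2.34). The mutants of Anat_LPSchallenged held 87.8, 41.4 and 123.6 normalised reads of Il10ra and have no control of their own experiment. Without them the log2 difference was -3.48, and without control 1 it was -3.11. In bulk libraries a lower level in each cell and a smaller share of cells with the gene cannot be told apart, so the remaining Il10ra may lie in few cells or in all.

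Cx3cr1, the fractalkine receptor gene whose locus carries CreER in the mutants, was the next gene in order of p. The controls held 4355.7, 5152, 6004, 6126, 5604 and 5819 normalised reads of Cx3cr1, and the mutants ranged from 1895 to 3182 with a median of 2652. Every mutant stood below every control. The mutant mean of 2618 ± 396 (SD, n = 9) was 47.5% of the control mean of 5510.1 ± 662 (SD, n = 6). The log2 difference of Cx3cr1 was -1.05 ± 0.22 (95% interval -1.48 to -0.61), and its adjusted p of 0.0786 by limma over all 48 libraries of the table missed the threshold. When limma was given the 15 untreated libraries only, so that the spread came from them, the adjusted p of Cx3cr1 was 0.000505. With an experiment term, such a fit takes the genotype difference from AS_2nd_exp and AS_3rd_LPS alone, since Anat_LPSchallenged held no untreated control. The mutants of Anat_LPSchallenged then add to the spread and not to the difference. For Cx3cr1, edgeR's quasi-likelihood test on recovered reads gave an adjusted p of 0.00667. The difference of Cx3cr1 was -0.78 within AS_2nd_exp and -1.11 within AS_3rd_LPS. It was -0.95 without the mutants of Anat_LPSchallenged (limma over the rest of the table, adjusted p = 0.988) and -1.11 without control 1 (limma, adjusted p = 0.0964). In the table of untreated libraries, normalised separately by the authors, C57BL/6 microglia of a further experiment held 3604 ± 227 normalised reads of Cx3cr1 (SD, n = 4), between the 5134 ± 633 of the floxed controls (n = 6) and the 2436 ± 372 of the mutants (n = 9). The strain and the experiment of the C57BL/6 libraries cannot be told apart.

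**Figure D1:**
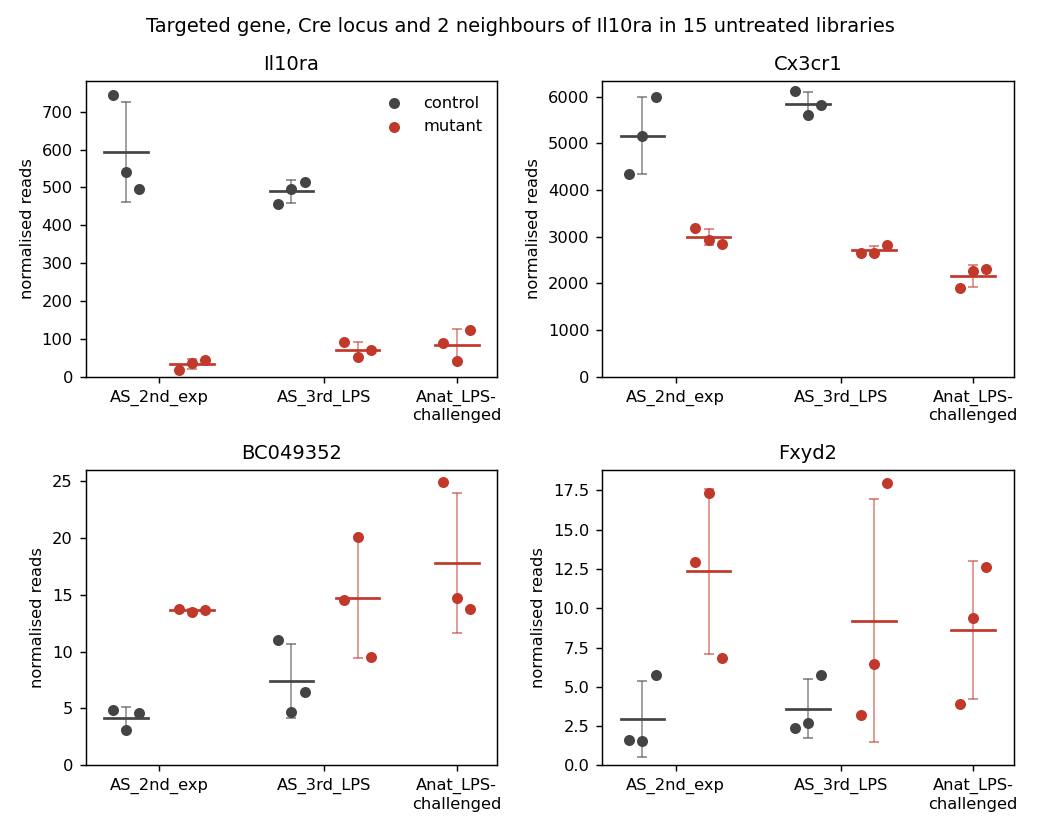
Normalised reads (y axis, linear from 0) of Il10ra, Cx3cr1, BC049352 and Fxyd2 in the 15 untreated libraries, by experiment (x axis); points are libraries (grey control, red mutant), lines are means and bars are SD. For Il10ra and Cx3cr1 every mutant lies below every control, and for BC049352 and Fxyd2, at far lower levels, most mutants lie above the controls of their experiment.

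The other receptor chain and the signal carriers showed no difference that passed the test. Of the 13 genes of the IL-10 receptor list, 1 was called (Il10ra, lower), against 0.00865% of all 11555 genes tested, and the median log2 difference of the list was 0.01, as it was over all genes. Il10rb ranged from 157 to 210 normalised reads in controls and from 161 to 255 in mutants, with a log2 difference of 0.08 (95% interval -0.19 to 0.34). Jak1 had a log2 difference of -0.09, Tyk2 of -0.01, Stat3 of 0.14, Stat5a of -0.34, Stat5b of 0.01 and Pias3, an inhibitor of STAT3, of -0.08. Jak2, a kinase of other cytokine receptors, had the lowest p of these genes after Il10ra, with 43.8 ± 4.3 normalised reads in controls (SD, n = 6) and 33.3 ± 4.9 in mutants (SD, n = 9) and a log2 difference of -0.30 (limma, unadjusted p = 0.0828). Without mutants 7 to 9 the log2 difference of Jak2 was -0.42 (limma, unadjusted p = 0.0214), where 0.917% of all genes were lower and 1.01% higher at unadjusted p under 0.05 (1.93% in all). Socs1, a feedback inhibitor, had a log2 difference of 0.54 at 4.57 to 21.0 normalised reads. The cytokine itself was near the limit of detection: Il10 was at 0 in all libraries except mutant 7, which held 1.31 normalised reads.

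Socs3, the STAT3-induced feedback inhibitor, stood apart only in the mutants of Anat_LPSchallenged, which held no untreated control. Its controls held 121 to 227 normalised reads, mutants 1 to 6 held 123 to 181, and mutants 7 to 9 held 422, 385 and 391. The log2 difference of Socs3 between genotypes was 0.25 (95% interval -0.27 to 0.77), and it was -0.25 within AS_2nd_exp and -0.01 within AS_3rd_LPS. The whole IL-10 and STAT3 response list had 2 of 17 tested genes at unadjusted p under 0.05, both higher, where 1.42% of all genes were. These were Bcl3, a nuclear co-regulator of NF-kB (log2 0.57), and Bcl6, a transcriptional repressor (log2 0.40). Without mutants 7 to 9 the count was 0. Nfil3, another STAT3 target, had a log2 difference of 0.36.

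Across the transcriptome, limma over all libraries called Il10ra and 0 further genes (edgeR and DESeq2 on recovered reads called 2 each, or 0.0173%, Il10ra and Cx3cr1). Unadjusted p was under 0.05 for 249 genes (2.15%), 164 higher (1.42%) and 85 lower (0.736%) in mutants. For 9395 genes (81.3%) the 95% interval lay within -1 and 1, and for 11500 genes (99.5%) within -2 and 2. Genes were kept by their level in any of the 48 libraries, LPS-treated ones included. Some, such as Il10, were near 0 without treatment. On the scale of log2(normalised reads + 1) such genes have narrow intervals that do not bound a missed difference. For genes well above 0 the intervals set how large a difference could have been missed. The median standard error was 0.23. Within AS_2nd_exp 1 gene was called (Il10ra), and within AS_3rd_LPS 3 were, or 0.026% (Il10ra, Cx3cr1 and Rpl36a-ps2, a ribosomal protein pseudogene whose reads may belong to its parent gene). The genotype differences of the 2 experiments, which share no library, had a Pearson r of -0.10 across the 11555 genes and the same sign in 43.7% of them. Without control 1 those values were -0.01 and 48.8%.

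**Figure D2:**
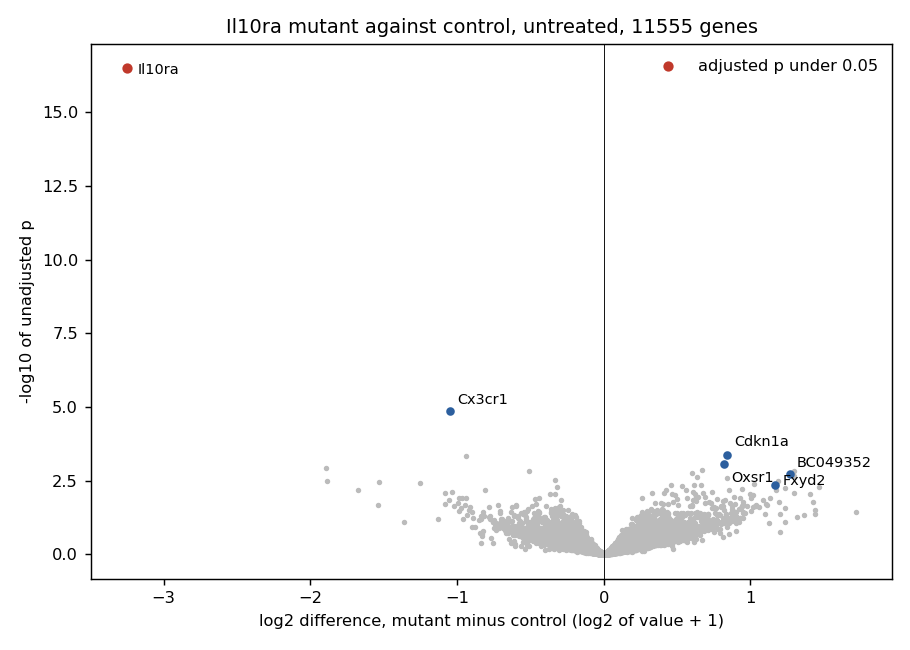
Log2 difference between untreated mutants and controls (x axis) against -log10 of the unadjusted limma p (y axis, linear scale of a log quantity) for the 11555 genes tested; the red point has an adjusted p under 0.05 and blue points are some of the other genes named in the text and grey points the rest. Il10ra stands alone at -3.25, and Cx3cr1 follows at -1.05.

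Of the genes of lowest p with higher values in mutants, none passed the adjustment. Cdkn1a, which encodes the cell cycle inhibitor p21, ranged from 39.1 to 61.1 normalised reads in controls and from 55.7 to 142.8 in mutants, and of the mutants only the lowest stood within the range of the controls. Its log2 difference was 0.84 ± 0.22 (limma, unadjusted p = 0.00043), with 1.09 within AS_2nd_exp and 0.44 within AS_3rd_LPS, and 0.77 without mutants 7 to 9. The others with a mean of at least 20 were Slc7a1, a cationic amino acid transporter (log2 0.67), Hdac6, a cytoplasmic deacetylase (0.60), Nfkbid, an atypical NF-kB inhibitor (0.62), Psd4 (0.46), Ccdc86 (0.53), Ptges3, a co-chaperone (0.42), H2-Aa (0.85) and the pseudogenes Rps16-ps2 (1.02) and Rpl3-ps1 (1.47), whose reads may come from their parent genes. On the lower side, Chchd1 (-0.51), Mdh1, a malate dehydrogenase (-0.33), Uqcrh, a subunit of respiratory complex III (-0.37), Ufc1, the ufmylation conjugating enzyme (-0.32), Exosc8, a subunit of the RNA exosome (-0.33), Plekhm1 (-0.44), Dbi, the acyl-CoA binding protein (-0.47), and Rps23, a ribosomal protein (-0.29), followed Il10ra and Cx3cr1.

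The groups did not overlap for 5 genes, all lower in mutants (0.0433% of genes tested), and for 0 genes was every mutant above every control. Besides Il10ra and Cx3cr1 they included Nbl1 and Tmem128, named after their values were seen. Nbl1, a secreted antagonist of bone morphogenetic proteins, held 10.3 to 24.1 normalised reads in controls and 1.61 to 9.90 in mutants, with a log2 difference of -0.90 (limma, unadjusted p = 0.117). Tmem128 held 62.0 to 81.2 and 37.8 to 61.7.

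A pair of genes beside Il10ra had higher values in mutants. BC049352 (chr9:45195688-45251370), the nearest gene tested, held 4.82, 3.07, 4.59, 11.05, 4.72 and 6.49 normalised reads in controls and a lowest, median and highest value of 9.50, 13.7 and 24.9 in mutants. Only the highest control overlapped the mutants. The log2 difference of BC049352 was 1.27 ± 0.38 (limma, unadjusted p = 0.00186), with 1.52 within AS_2nd_exp, 0.91 within AS_3rd_LPS and 1.22 without mutants 7 to 9. Fxyd2 (chr9:45399709-45410278), a regulator of the sodium pump, held 1.54 to 5.77 normalised reads in controls and 3.23 to 17.9 in mutants, with a log2 difference of 1.17 ± 0.39 (limma, unadjusted p = 0.00428). Neither passed the adjustment over all genes. They were the 2 genes at unadjusted p under 0.05 among the 34 tested genes within 2 Mb of Il10ra, where the share over all genes was 2.15%. Near Cx3cr1 the count was 3 of 35: Oxsr1, a stress-responsive kinase (log2 0.82, unadjusted p = 0.000835), Csrnp1 (log2 0.63) and Higd1a (log2 -0.71). The labels do not say whether reads were counted by strand, so reads near the ends of neighbouring genes such as Il10ra and BC049352 may be assigned to either. The mutant chromosome 9 also carries the Cx3cr1-CreER allele, and its strain background is not stated in the labels.

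The same 2 neighbours had higher values in a separate set of untreated libraries. Double mutants, which lack both Il10ra and Tnf in Cx3cr1-expressing cells, held 26.97 ± 10.7 normalised reads of Il10ra (SD, n = 5), against 483 ± 42.4 in doubly floxed controls (SD, n = 6), and the log2 difference was -4.16 (limma, adjusted p = 4.27e-14). In that comparison 3 of 11800 genes were called (0.0254%), namely Il10ra, Cx3cr1 (log2 -1.34, adjusted p = 0.000363) and Tnf (log2 -2.29, adjusted p = 0.0131). The column of double mutant 4 carries the word mistake in its name, although its labels give the genotype and no treatment. Without that library 2 genes were called, Il10ra (log2 -4.22) and Cx3cr1 (log2 -1.49), and Tnf missed the threshold (log2 -2.11, limma adjusted p = 0.0964). BC049352 held 4.80 ± 3.05 and 14.7 ± 6.4 normalised reads in these controls and double mutants, with a log2 difference of 1.61 ± 0.45 (95% interval 0.69 to 2.53). Fxyd2 held 4.42 ± 3.41 and 17.7 ± 12.6, with 1.63 ± 0.46 (95% interval 0.69 to 2.56). Both missed the adjustment over all genes there too (limma, adjusted p = 0.469 for each), and without double mutant 4 their log2 differences were 1.34 for BC049352 and 1.30 for Fxyd2. Oxsr1, near Cx3cr1, had a log2 difference of 0.02 (95% interval -0.51 to 0.55) in the double mutants. Within 2 Mb of Il10ra, 7 of 34 tested genes were at unadjusted p under 0.05, and near Cx3cr1 0 of 33 were, where 9.13% of all genes were (3.63% higher and 5.5% lower). C57BL/6 microglia held 4.34 ± 1.69 normalised reads of BC049352 and 5.61 ± 3.77 of Fxyd2 (SD, n = 4), beside 5.39 ± 2.61 and 3.06 ± 1.83 in floxed controls of the same table.

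**Figure D3:**
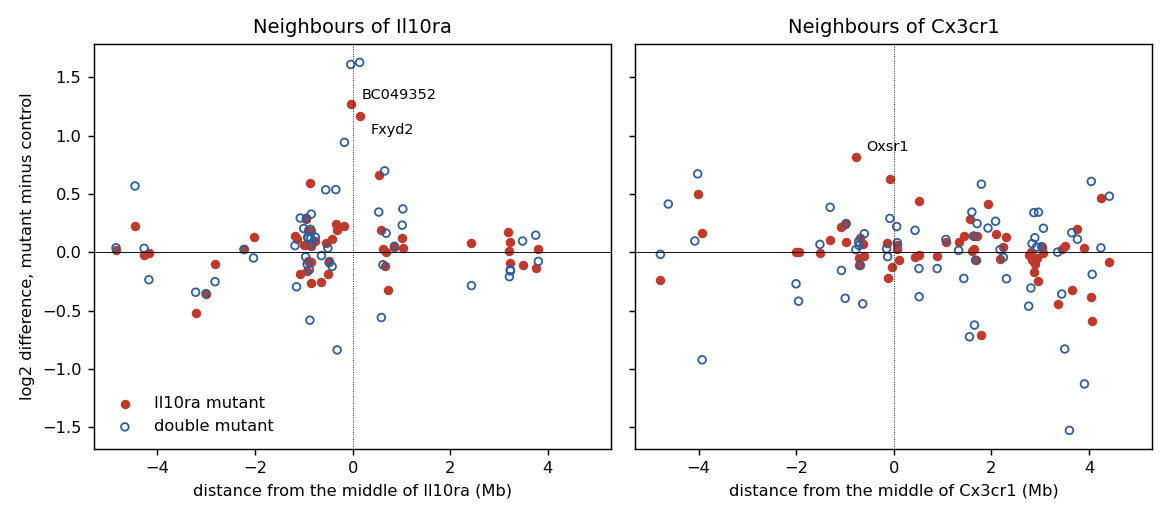
Log2 difference between untreated mutants and their controls (y axis) against the distance of a gene's middle from the middle of Il10ra or Cx3cr1 (x axis, Mb); filled red points are the Il10ra mutant and open blue points the double mutant, 1 point per tested gene, the targeted genes left out. BC049352 and Fxyd2, beside Il10ra, are the highest points of their panel in both comparisons.

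Genes of microglial identity showed no difference that passed the test. P2ry12, the ADP receptor of resting microglia, held 4272 ± 510 normalised reads in controls (SD, n = 6) and 4019 ± 391 in mutants (SD, n = 9), a log2 difference of -0.10 (95% interval -0.47 to 0.28). Tmem119 held 3971 ± 432 and 3913 ± 830 (95% interval -0.38 to 0.39). Of the 24 homeostatic genes 0 were called and 1 was at unadjusted p under 0.05 (Cx3cr1), and the list's median was -0.02. Siglech, a microglial lectin, had -0.15 and Tgfbr1, a TGF-beta receptor, 0.11. The 12 genes of TGF-beta signalling had a median of 0.10 and 0 genes at unadjusted p under 0.05, with 0.45 for Smad6, -0.20 for Itgav and 0.15 for Ski. In the disease-associated microglia list, 2 of 23 genes were at unadjusted p under 0.05, Axl, a phagocytic receptor (log2 0.44), and Csf1, a growth factor of microglia (0.36), both higher, where 1.42% of all genes were. Without mutants 7 to 9 the count was 0, with Axl at 0.24 and Csf1 at 0.27. Ctsb, a lysosomal protease, had 0.13.

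Inflammatory genes likewise held no called gene. Tnf ranged from 21.5 to 37.5 normalised reads in controls, from 17.2 to 33.3 in mutants 1 to 6, and stood at 74.7, 41.4 and 70.9 in mutants 7 to 9. Its log2 difference was 0.33 (95% interval -0.40 to 1.06), with 0.09 within AS_2nd_exp and -0.48 within AS_3rd_LPS. Il1b stood at 6.89 to 18.02 normalised reads in controls and 7.69 to 43.2 in mutants (log2 0.70, and 0.24 without mutants 7 to 9). The 22 tested cytokines and chemokines had a median of 0.37 in the pooled fit and 0.06 without mutants 7 to 9. Within the 2 experiments the median was 0.17 and 0.00. Of these 22 genes 1 was at unadjusted p under 0.05 (Csf1, higher), where 1.42% of all genes were higher. Osm, a cytokine of the IL-6 family, had 0.42, and 0.02 without mutants 7 to 9. Of the 21 NF-kB genes and the 18 Toll-like receptor genes 0 were at unadjusted p under 0.05. Nfkbia, the inhibitor of NF-kB, had a log2 difference of 0.42, Ikbke, a kinase, -0.59, and Acod1, the itaconate enzyme, -0.83 at 0 to 10.8 normalised reads. The Toll-like receptor genes Tlr2 (0.22) and Tlr6 (-0.33) and the inhibitory kinase Irak3 (0.50) had the lowest p of their list.

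Interferon-induced and antigen presentation genes were higher in the pooled mutants at unadjusted p only. Of 41 interferon response genes, 11 were at unadjusted p under 0.05 and all 11 were higher, where 1.42% of all genes were, and the median was 0.29. Ifit3 (log2 1.09), Mx2 (0.62) and Usp18 (0.83), an antiviral gene, an antiviral GTPase and a deubiquitinase-like brake on the pathway, had the lowest p. Without mutants 7 to 9 the count was 0 and the median 0.12. The 2 shared experiments differed: within AS_2nd_exp the median was 0.00 and 0 of the 41 genes were higher and 1 lower at unadjusted p under 0.05, and within AS_3rd_LPS it was 0.23, with 35 of 41 genes positive and 4 higher at that level, where 3.94% of all genes were. The counts were 4 of 9 for MHC class II and 1 of 16 for MHC class I in the pooled fit and 0 for both without mutants 7 to 9. Within AS_3rd_LPS alone they were 3 of 9 and 5 of 16, all higher, and within AS_2nd_exp 0 for both. In MHC class I, H2-Q6 had 0.89, the non-classical H2-T23 0.34 and the peptide transporter Tap2 0.30. The complement component C4b held 3.07 to 10.8 normalised reads in controls, 6.84 to 37.8 in mutants and 22.3 to 37.8 in mutants 7 to 9 alone (log2 0.94, and 0.48 without them). Fcgr4, an Fc receptor, had 0.38 and C3 0.57. The interferon list summed to 1127 to 1633 normalised reads in the libraries of the 2 shared experiments, with control 1 the highest. It summed to 1612, 1613 and 2533 in mutants 7, 8 and 9, so only mutant 9 stood above that range.

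Other lists held few genes at unadjusted p under 0.05, where 2.15% of all genes were (1.42% higher and 0.736% lower). In the proliferation list Ube2c (log2 1.03), Mki67 (0.93) and Mcm6 (0.49) had the lowest p at levels of at most 29.4 normalised reads, and 1 of 18 genes was at unadjusted p under 0.05. Among glucocorticoid-responsive genes 1 of 12 was (Cdkn1a), with Errfi1 at 0.35 and Sgk1 at 0.33 (0.03 without mutants 7 to 9). Glycolysis genes had 0 of 14, with Gapdh at -0.88, Ldha at -0.11 and Pgam1 at 0.31. Gapdh rested on control 5, which held 206.3 normalised reads against 2.56 to 11.5 in all mutants. Among the 13 cholesterol genes 0 were called and 1 was at unadjusted p under 0.05, lower in mutants. Hmgcs1, an enzyme of synthesis, had a log2 difference of 0.28, and the list's median was 0.03.

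**Figure D4:**
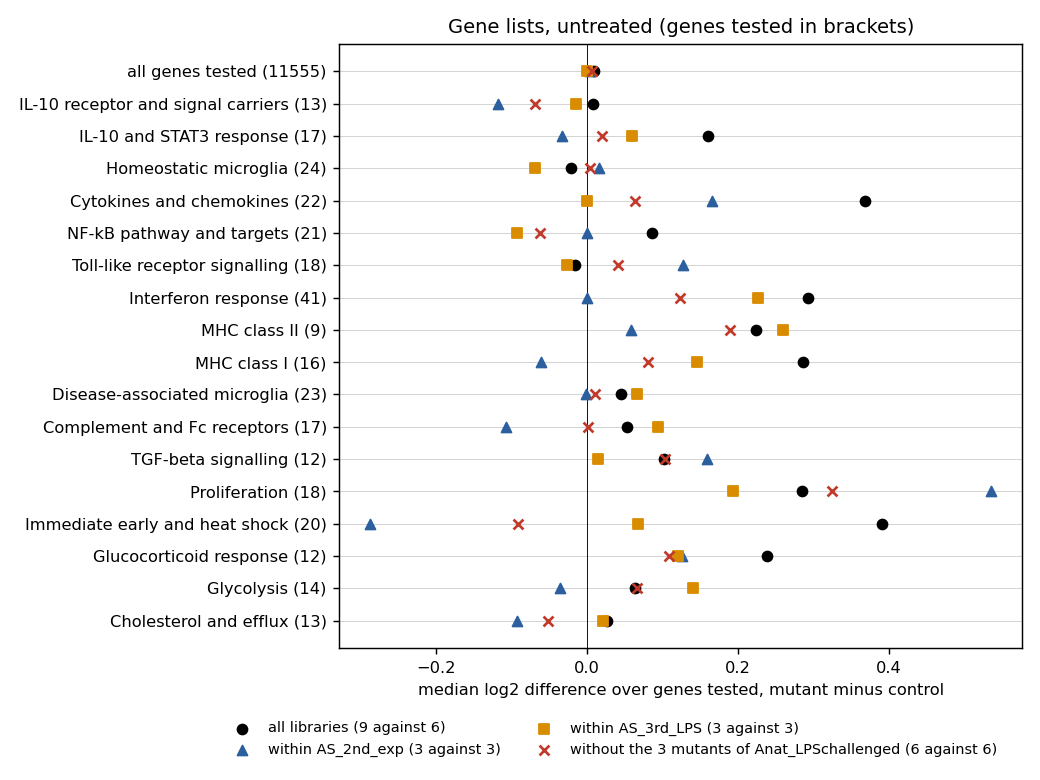
Median log2 difference between untreated mutants and controls (x axis) over the tested genes of each list (y axis, number of genes in brackets) in all libraries, within each of the 2 experiments that held both genotypes, and without the 3 mutants of Anat_LPSchallenged. The immediate early, cytokine and IL-10 response lists stand at 0.16 to 0.39 in all libraries and at -0.09 to 0.06 without those 3 mutants.

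More genes differed between experiments than between genotypes. With a genotype term in limma over the 15 untreated libraries, 688 of 11555 genes differed between the 3 experiments (5.95%). Genotype had 1 called gene in the fit of the whole table and 2 in that of the 15 libraries. With both terms, the genotype difference in the 15 libraries rests on AS_2nd_exp and AS_3rd_LPS, which held both genotypes. None of the 688 was called for genotype in the whole table. In 313 of the 688 genes the mutants of Anat_LPSchallenged had the highest mean of the 3 experiments and in 228 the lowest. The count moved by over 1.5 times without any 1 of control 1, controls 4 to 6 and mutants 4 to 9, from 329 genes without mutant 6 to 1314 without control 1. Immediate early and heat shock genes were called most often among the lists, 17 of 20 genes. Fos, a subunit of the AP-1 transcription factor, stood at 1307 to 1684 normalised reads in mutants 7 to 9 and at 279 to 601 in the other 12 libraries. Klf2, a zinc finger factor, stood at 313 to 444 against 32.7 to 89.6, Atf3, a stress-induced factor, at 152 to 198 against 39.3 to 78.3, and Klf6 at 168 to 192 against 71.9 to 106.6. The summed list stood at 10656 to 12923 normalised reads against 3089 to 5885. Genes known to respond to LPS are given beside their values in mutants 6 h after LPS (n = 7). Acod1 stood at 1.34 to 3.93 normalised reads in mutants 7 to 9 and at 32.7 to 233 at 6 h. Saa3, an acute phase gene, stood at 10.7 to 45.8 and 43.2 to 972, and Lcn2, an iron-binding acute phase gene, at 29.8 to 81.2 and 32.4 to 1046, both overlapping. Fos, at 645 to 2514 at 6 h, overlapped as well, as did Fosb at 123 to 220 normalised reads in mutants 7 to 9 and 10.8 to 324 at 6 h. Among the other 12 untreated libraries, Acod1 stood at 0 to 10.8 normalised reads and Saa3 at 7.675 to 49.7. Lcn2 stood at 1.58 to 56.3 there, and Fosb at 10.45 to 33.7. Median values of mutants at 6 h were 117 for Acod1, 369.5 for Saa3, 183 for Lcn2, 1920 for Fos and 159 for Fosb. In mutants 7 to 9 the medians were 3.43 for Acod1, 34.05 for Saa3, 49.45 for Lcn2, 1578 for Fos and 179.6 for Fosb. The neutrophil list summed to 864 to 1119 normalised reads in mutants 7 to 9, to 1231 in control 1 and to 405 to 832 in the remaining 11 libraries. That sum includes Csf3r, at 292 to 578 normalised reads over the 15 libraries, and 2 of the 11 tested genes of the list differed between experiments. The mitochondrial share of mutants 7 to 9 was 0.631% to 0.684%, below every other library except control 1 and mutant 3 (0.682%). The part of other cells or of RNA quality in the immediate early values was not tested. In the genotype comparison the immediate early list had a median log2 difference of 0.39 in all libraries, -0.29 within AS_2nd_exp, 0.07 within AS_3rd_LPS and -0.09 without mutants 7 to 9.

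**Figure D5:**
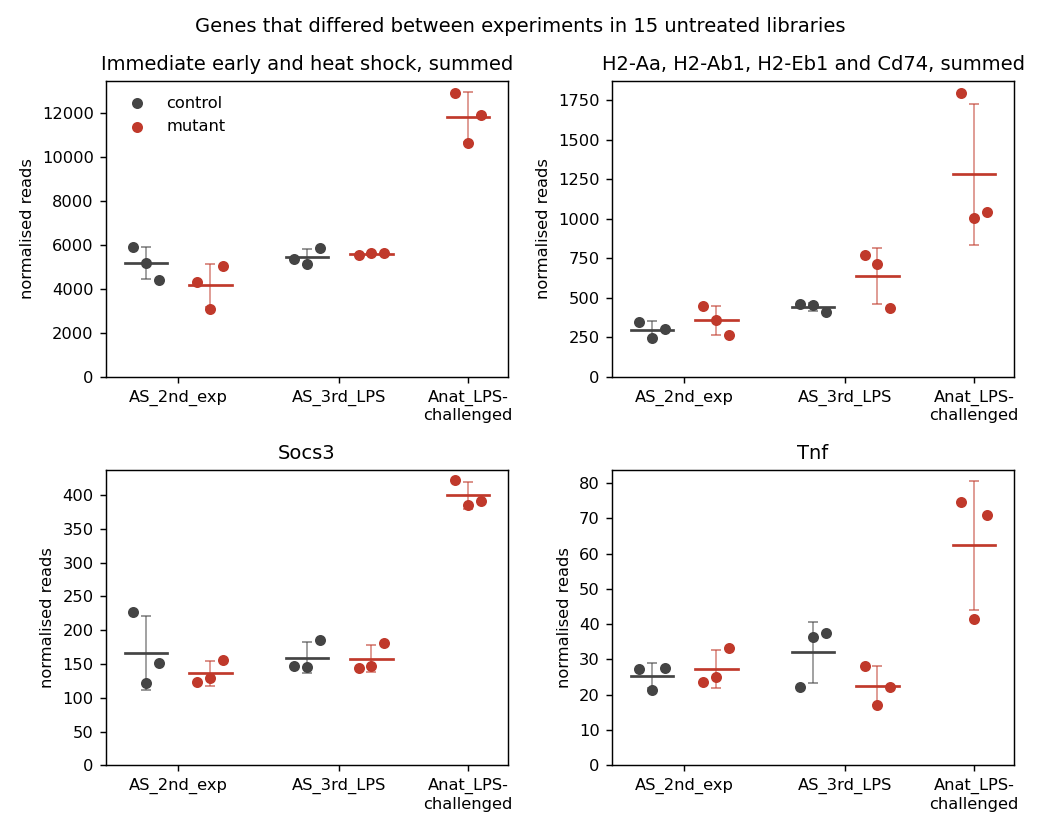
Normalised reads (y axes, linear from 0) of the summed immediate early and heat shock list, the summed genes H2-Aa, H2-Ab1, H2-Eb1 and Cd74, Socs3 and Tnf in the 15 untreated libraries, by experiment (x axis); points are libraries (grey control, red mutant), lines are means and bars are SD. The 3 mutants of Anat_LPSchallenged lie above all 12 other libraries in each panel.

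MHC class II genes present peptides to CD4+ T cells, and some of them moved together between the experiments, although Anat_LPSchallenged held no untreated control. Of the 9 tested genes of this list, 5 differed between experiments, where 5.95% of all genes did. H2-Aa held 472.8, 274 and 301 normalised reads in mutants 7, 8 and 9 and 56.2 to 217 in the other 12 libraries. H2-Ab1 stood at 270 to 527 against 76.9 to 239.5, H2-Eb1 at 173 to 327 against 30.7 to 163.8, and the invariant chain gene Cd74 at 271 to 468 against 62.2 to 184.8. Their sum was higher in AS_3rd_LPS than in AS_2nd_exp in controls too, 412 to 459.5 against 245 to 348. The genotype difference of H2-Aa was 0.85 (limma, unadjusted p = 0.00652), and it was 0.31 and 0.57 within the 2 experiments and 0.44 without mutants 7 to 9. For H2-Ab1 these values were 0.77, 0.30, 0.41 and 0.35, for H2-Eb1 0.86, 0.29, 0.51 and 0.40, and for Cd74 0.69, 0.06, 0.46 and 0.26. H2-Oa (0.07), H2-Ob (-0.11) and H2-DMb1 (0.03), which shape peptide loading, had smaller differences.

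The 250 bases before the start of H2-Aa and of H2-Eb1 are shown because both genes moved together and both hold the letters CTGATTGG, the CCAAT-type box of MHC class II promoters, given here in capitals. They are RefSeq sequences of GRCm38.p6, 5′ to 3′ along each gene, at chr17:34287824-34288073 (minus strand) and chr17:34305617-34305866 (plus strand).
H2-Aa: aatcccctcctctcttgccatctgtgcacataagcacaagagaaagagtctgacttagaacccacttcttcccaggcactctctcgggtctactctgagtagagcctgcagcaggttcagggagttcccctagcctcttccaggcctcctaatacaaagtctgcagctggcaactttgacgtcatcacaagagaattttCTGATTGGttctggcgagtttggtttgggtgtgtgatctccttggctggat
H2-Eb1: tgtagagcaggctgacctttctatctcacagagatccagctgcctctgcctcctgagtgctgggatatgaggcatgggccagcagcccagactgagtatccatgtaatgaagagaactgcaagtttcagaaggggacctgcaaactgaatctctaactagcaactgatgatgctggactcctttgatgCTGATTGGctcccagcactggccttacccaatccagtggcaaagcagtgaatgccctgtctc
The letters begin 51 bases before the start of H2-Aa and 62 before that of H2-Eb1. Searched on both strands (CTGATTGG or CCAATCAG) in the same window, they occur in 1258 of 32851 RefSeq promoters, or 3.83%. Of the other MHC class II genes searched, H2-Oa, which did not pass the test between experiments, holds them, and H2-DMa, H2-DMb1, H2-DMb2 and H2-Ob do not. H2-Ab1 and Cd74, which moved with H2-Aa and H2-Eb1, were not searched. A match describes the letters and not a bound site.

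After LPS the same genotypes differed far more. The difference between the genotype effects at 48 h (5 mutants, 6 controls) and without treatment was tested as an interaction in limma, and 1893 genes passed (16.4%), 779 higher (6.74%) and 1114 lower (9.64%) at 48 h. Il10ra was not among them: its log2 difference was -3.25 without treatment and -3.48 at 48 h, and the interaction was -0.23 ± 0.41 (adjusted p = 0.757). Cx3cr1 was -1.05 and -1.30, with an interaction of -0.25 ± 0.35 (adjusted p = 0.690). Il10rb had 0.08 and -0.99 (interaction adjusted p = 0.000404). P2ry12 had -0.10 without treatment and -1.41 at 48 h (interaction adjusted p = 0.00168), and Tmem119 0.00 and -1.89 (adjusted p = 2.9e-05). Of the 24 homeostatic genes, 16 had a lower genotype difference at 48 h and 0 a higher one. Tnf had 0.33 and 2.39 (adjusted p = 0.0119), Acod1 -0.83 and 4.50 (adjusted p = 0.000256) and Cdkn1a 0.84 and 3.23 (adjusted p = 6.47e-06). Nbl1, lower in every untreated mutant, had -0.90 and 6.05 (adjusted p = 7.72e-07), with 1.29 ± 2.02 normalised reads in controls (SD, n = 6) and 145.7 ± 46.7 in mutants (SD, n = 5) at 48 h. The proliferation list had 14 of 18 genes with a lower difference at 48 h. Of the 5 mutants at 48 h, 3 shared the experiment AS_3rd_LPS with the controls, and 2 came from another that held no other library of this fit. The experiment term takes up the level of those 2. The 48 h differences and the interaction therefore rest on the 3 mutants and 6 controls of AS_3rd_LPS. Without mutant 2 at 48 h the interaction count was 1134.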

How the data were processed

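Normalised reads per gene of MARS-seq libraries were taken from 3 tables that the authors deposited. The unit is a signal: reads divided by a factor per library, per the file headers (columns named normalized), with the factor's method not given in the sources used here and mm10 as the build per the submitters' processing notes. Values were whole multiples of 1 step per library within 0.01 of a step, which gave the recovered reads. Rows with date names (18 in the mutant table, 0.0799% of reads) were left out.

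Genes with at least 5 normalised reads in at least 4 libraries were tested with limma 3.58.1 (trend) on log2(value + 1), with group and experiment terms over the 48 libraries of the mutant table. In it, mutants 7 to 9 are linked to the controls through LPS-treated libraries of their experiment. P-values were Benjamini-Hochberg adjusted, and genes with an adjusted p under 0.05 are called. The interaction used the same fit, and the double mutant comparison its own table. Recovered reads (46 of the 48 libraries) served edgeR 4.0.16 and DESeq2 1.42.0 as alternatives, in R 4.3.3. The limma and edgeR fits were also run on simulated counts with the same spread setting for all genes and no difference between experiments. That run does not test the fits on libraries that differ by experiment. Named genes were Il10ra, Cx3cr1, the IL-10 receptor list, Tnf, Il1b, P2ry12, Tmem119, called genes, the 10 of lowest p per direction with a mean of at least 20 in 1 group (Gm and Rik names left out), 3 per pathway list, and the neighbour of lowest p within 2 Mb of Il10ra and Cx3cr1. The comparison, members and lists were chosen with earlier results of these data known. Fxyd2, Csrnp1, Higd1a, Nbl1, Tmem128, C57BL/6 values, the remaining immediate early and MHC class II genes and Hbb-bs were named after their values were seen. Positions came from RefSeq (GRCm38.p6), where 10859 of 11555 symbols matched. Some genes that the naming rule selects are not reported here. The permutation of Il10ra within experiments was added after seeing the data.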

Additional observations from a re-analysis of the deposited data

Results flagged for a closer look

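Single libraries stood far from the rest of their group by Dixon's test in 24 of 176 groups tested. Chance alone marks a small part of such groups, and the genes are not independent. Control 1 had 6 of these values, mutant 7 had 5, mutant 9 had 4 and control 3 had 3. In control 1 Il10ra was high at 744.6 normalised reads, as were Axl at 73.98, Sgk1 at 933.5, Rpl3-ps1 at 21.71 and Hbb-bs at 145.5, and Nfkbia was low at 338.5. In control 3 Tmem119 stood at 4832, Chchd1 at 71.15 and Nbl1 at 24.1, and in control 5 Irak3 at 8.091 and Gapdh at 206.3. In mutant 7 Il1b stood at 43.22, Il10 at 1.31, Stat5a at 32.74, H2-Ab1 at 526.5 and Hbb-bs at 110.02. In mutant 9 Nfkbia stood at 1815, Ifit3 at 45.77, H2-Q6 at 27.46 and Tmem128, low, at 37.76. Single values stood apart in other mutants: Bcl6 at 10.66 in mutant 1, Tmem119 at 5940.3 in mutant 2, Rps16-ps2 at 209 in mutant 6 and Oxsr1 at 26.73 in mutant 8.

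Over all 11555 genes tested, 1893 passed the limma interaction at adjusted p under 0.05 (16.4%, with 6.74% higher and 9.64% lower). For 29 named genes the genotype difference 48 h after LPS differed from that without treatment by the same test. On the log2 scale the interaction was positive for 15 of them, with 2.06 for Tnf, 1.18 for Stat5a, 2.40 for Cdkn1a, 0.98 for Slc7a1, 0.69 for Ufc1, 1.19 for Exosc8, 0.86 for Rps23, 1.91 for Nfil3, 1.58 for Osm, 1.26 for Nfkbia, 5.33 for Acod1, 1.67 for Irak3, 0.61 for Ldha, 6.95 for Nbl1 and 1.74 for Tmem128. It was negative for 14 of them, with -1.31 for P2ry12, -1.90 for Tmem119, -1.06 for Il10rb, -1.65 for Hdac6, -0.93 for Psd4, -2.50 for Rpl3-ps1, -0.92 for Tgfbr1, -0.86 for Csf1, -1.26 for Axl, -2.96 for C4b, -3.90 for Ube2c, -3.25 for Mki67, -1.61 for Mcm6 and -1.24 for Kif2c.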

How the results depend on the processing

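Il10ra remained called in every alternative run. The count of called genes was 2 (Il10ra and Cx3cr1 by edgeR and DESeq2) and also 2 without an experiment term, with the 15 untreated libraries only (with or without that term), with Xist as a covariate, and, as alternatives chosen after seeing the data, in the table of untreated libraries and with control 1 left out of the untreated fit. It was 3 within AS_3rd_LPS. Leaving out 1 library gave 1 to 3 called genes, 3 without mutant 1 (Il10ra, Cx3cr1 with adjusted p = 0.0432 and Kif2c). Apart from the runs that left out 1 library, Cx3cr1 passed the threshold in 9 of 17 alternatives and missed it in the rest. It missed it by quantile normalisation (limma, adjusted p = 0.988) and without the mutants of Anat_LPSchallenged (limma, adjusted p = 0.988), among others. Leaving out 1 library gave 1134 to 2012 genes for the interaction, 329 to 1314 for the experiments and 2 to 7 for the double mutants (7 without double mutant 2). Replicate numbers did not pair the libraries: deviations of same-numbered libraries correlated at -0.12 to 0.04. With the number as a replicate block the count was 1, and Il10ra stood at -3.48. Depth limits genes of few reads, such as Fxyd2.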
